A study of Mus musculus with 8 samples.

Results

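The aminoacyl-tRNA synthetases were represented by 36 of the 27179 genes in the deposited count table, 20 that encode the cytosolic enzymes and 16 that encode mitochondrial ones. They were chosen by symbol from a fixed list of names and not by a limit on their levels, though earlier results of these data were known. Each of the 36 matched 1 row, and all 36 passed the filter on low counts that left 13364 genes to be tested. The libraries came from a mouse model of acute myeloid leukaemia with the fusion oncogene MLL-AF9, whose cells had been recovered from mice after chemotherapy on either of 2 diets.

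Leukaemia cells taken from 1 terminally ill mouse had been grown ex vivo, carried reporters for green fluorescent protein (GFP) and luciferase, and were labelled wild type for genotype. Male recipients aged 8 to 10 weeks received them intravenously without conditioning, and GFP-positive cells that excluded 7AAD, a dye of dead cells, were later sorted from crushed bones. Every mouse was given 5+3 chemotherapy, with cytarabine at 100 mg/kg daily for 5 days and doxorubicin at 3 mg/kg for 3 days from the same start, and was killed at the maximum response. The standard diet, called AA in the labels, had 5 libraries and the diet called BCAA had 3; this is read as free of the branched-chain amino acids leucine, isoleucine and valine from how the series is titled and designed. Both groups therefore share 1 leukaemia, the same drugs and the same sort, and untreated cells were not analysed here.

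Aminoacyl-tRNA synthetases join each amino acid to its transfer RNA, the step that sets the genetic code at translation. Most amino acids have a cytosolic enzyme and a separate, nuclear-encoded mitochondrial one, while Gars (glycine) and Kars (lysine) each serve both compartments from a single gene. Transfer RNA left uncharged when an amino acid runs short activates the kinase GCN2 (Eif2ak4), which raises translation of the transcription factor ATF4, and ATF4 is known to induce many of the cytosolic synthetase genes. A diet without leucine, isoleucine and valine withholds the substrates of 6 of these enzymes, Lars, Iars and Vars in the cytosol and Lars2, Iars2 and Vars2 in mitochondria. The comparison addressed whether the synthetase transcripts of the leukaemia cells differed between the diets, in which compartment, and for which amino acids.

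Library totals were 16588662 to 38966911 counts on the standard diet and 14851240 to 30306697 on the BCAA-free diet, and the synthetases together held 88933 to 248574 counts per library, with a lowest single value of 108. Markers of myeloid leukaemia cells summed to 10471 to 13634 counts normalised to library size (CPM) on the standard diet and 8532 to 10358 on the BCAA-free diet. Markers of other cells were present at lower levels, on the standard and the BCAA-free diet respectively: 5.95 to 46.2 and 10.5 to 72.2 CPM for B and plasma cells, 1.24 to 3.11 and 3.13 to 22.2 for T cells, 3.09 to 10.3 and 2.92 to 32.7 for erythroid cells, 270.3 to 385 and 209 to 266 for macrophages, 112 to 738 and 270.6 to 1138 for mature neutrophils, and 23.8 to 42.6 and 39.3 to 60.3 for stroma. No marker was at 0 in all libraries, and BCAA-free replicate 2 had the highest B-cell, T-cell and neutrophil sums. The leukaemia, macrophage and T-cell sums did not overlap between the diets. The macrophage markers did not move together. Adgre1 and Vcam1 had log2 fold changes of -0.63 and -0.49, and C1qa and C1qb had 0.91 and 1.65. Most of the leukaemia sum was Mpo (log2 fold change -0.50), and the other leukaemia markers ran from -0.40 (Kit) to -0.08 (Hoxa9). No leukaemia or macrophage marker passed the test. Of single markers, the B-cell gene Cd79a and the stromal chemokine Cxcl12 rose on the BCAA-free diet, from 0.933 ± 0.559 and 5.15 ± 2.23 CPM to 8.53 ± 8.34 and 24.1 ± 13.6 CPM (edgeR adjusted p = 0.0305 and 0.0374), and were named after their values were seen. Leaving out 1 library kept the calls of Cd79a and Cxcl12 in 3 of 8 fits for each gene, with adjusted p up to 0.235 and 0.119. Other markers of their lists went both ways. Jchain and Pecam1 had log2 fold changes of -0.51 and -0.34, and Ms4a1 had 3.49 (edgeR adjusted p = 0.902, 0.549 and 0.0920). Sdc1 and Col1a1, at levels too low to be tested, had lower means on the BCAA-free diet, and Cdh5, also not tested, a higher one. The part of the other cell types in the results that follow was not tested. In RNA of a sorted pool, fewer cells of a type and less RNA per cell cannot be told apart.

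The cytosolic enzymes were the more abundant transcripts. Scaled to exon length, their levels on the standard diet ran from 22.9 to 152 CPM per kb with a median of 59.4, against 2.51 to 23.5 CPM per kb with a median of 6.52 for the 15 mitochondrial genes other than Lars2. The length is the union of a gene's annotated exons, which need not be the length that was counted. Mars2, the lowest at 2.51, was divided by 11294 bases, although its RefSeq position spans only 55237177 to 55240058 on chromosome 1. Its level may thus be too low, and the mitochondrial and pair medians depend on such lengths. In 15 of 16 matched pairs the cytosolic gene had the higher level, by 1.21-fold (Cars over Cars2, the cysteine enzymes) to 29.5-fold (Nars over Nars2, the asparagine enzymes), with a median of 6.44-fold without the leucine pair. The cysteine pair did not differ beyond its spread, since Cars was below Cars2 in 2 of the 5 standard-diet libraries (ratios 0.871 and 0.899) and in BCAA-free replicate 2 (0.797). Dars, the aspartate enzyme, was highest among cytosolic genes at 152 CPM per kb, followed by Nars at 123, Kars at 119.7, Eprs at 106 and Gars at 93.8. The exception was the leucine pair, where the level of Lars was 0.108 of that of Lars2. Lars2 stood at 531 CPM per kb, 22.5 times the next mitochondrial gene, Rars2. The part of reads from other sequences in the Lars2 count was not tested.

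**Figure D1:**
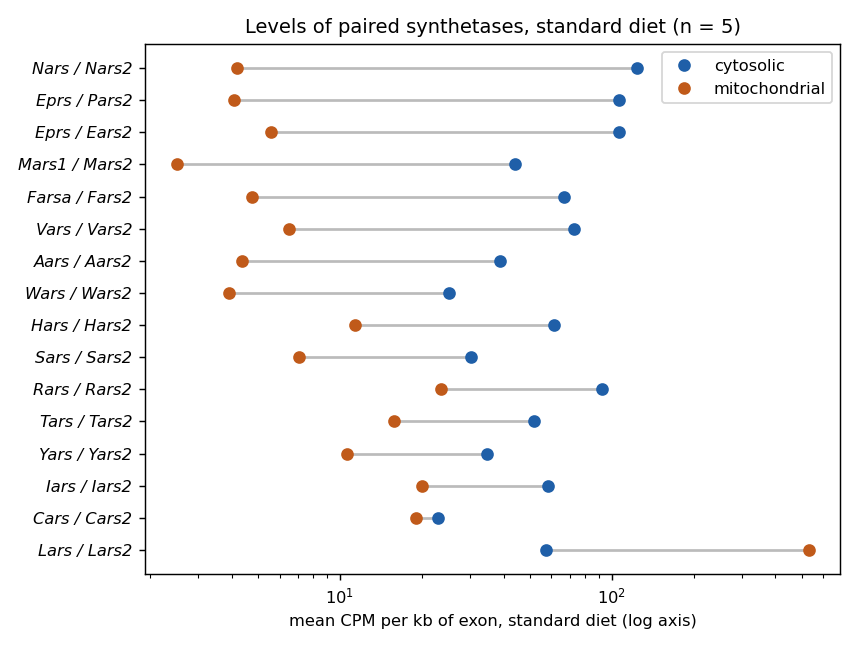
Mean level per kb of exon on the standard diet (CPM per kb, logarithmic axis, n = 5 libraries) of the cytosolic gene (blue) and the mitochondrial gene (orange) of each of 16 pairs, joined by a line; Eprs stands in 2 pairs. The blue point is the higher in 15 of 16 pairs, and the leucine pair at the bottom is the exception.

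No synthetase gene was called different between the diets. With an adjusted p under 0.05 required by the quasi-likelihood test of edgeR, 0 of 36 passed, against 0.756% of all tested genes (101 of 13364). Iars2, the mitochondrial isoleucine enzyme, came closest, with an adjusted p of 0.0927. At an unadjusted p under 0.05 there were 4 members, or 11.1%, against 13.5% of all tested genes: Iars2, Dars, Qars and Wars. In 3 members, or 8.33%, the diets did not overlap, against 8.84% of all tested genes: Iars2 and Hars2 were higher and Dars lower in every BCAA-free library. These shares were near or below the background. DESeq2, run as an alternative, called 1 member, Iars2 (adjusted p = 0.0263), where it called 2.85% of the genes it tested, and limma-voom called 0.

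The fold changes of most members were small and their errors bounded them. The log2 fold change, BCAA-free against standard diet, was between -0.41 and 0.68, and 22 of 36 members were within 0.1 of 0. It was positive in 23 members and negative in 13, with a median of 0.038, while 52.6% of all tested genes were positive and their median was 0.015. The 95% interval of the fold change lay within 1.5-fold in either direction for 31 members, where 51.0% of all tested genes met that limit, and within 2-fold for 35, the exception being Lars2. These intervals are per gene and not corrected for the number of genes. They give the range of changes between these diets that the counts of each gene allow in the sorted cells. A change inside that range is not excluded.

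**Figure D2:**
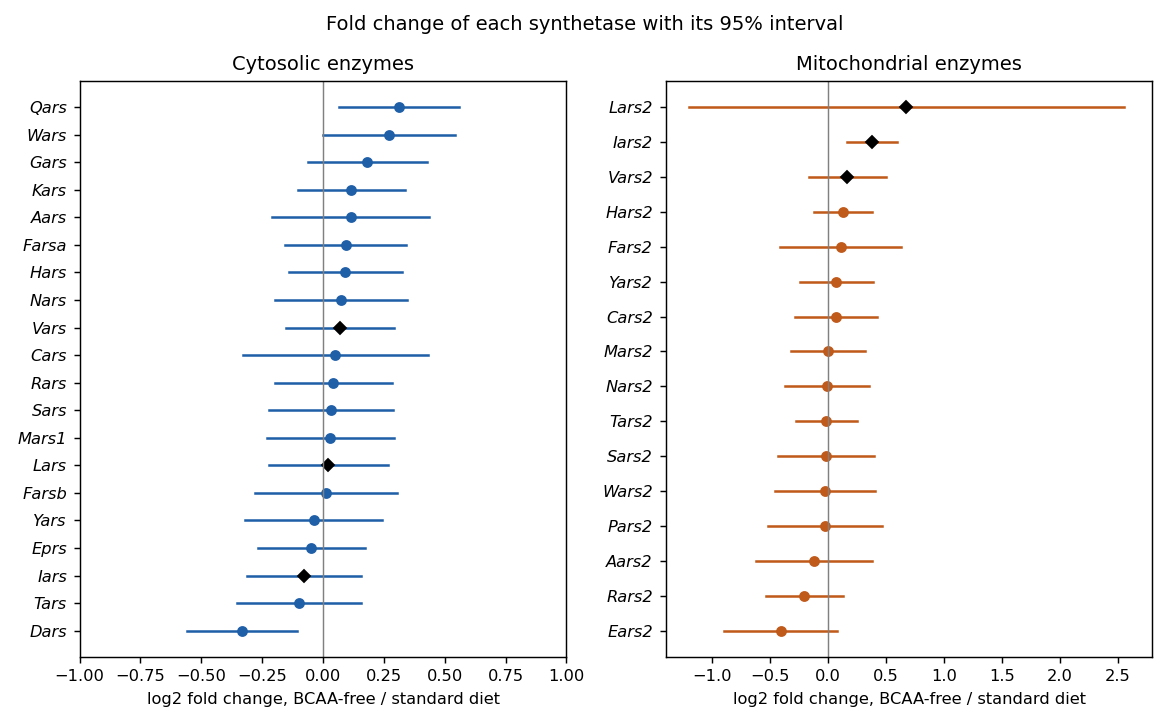
Log2 fold change of each of the 36 synthetase genes, BCAA-free against standard diet, with its 95% interval from edgeR (5 and 3 libraries), in 1 panel per compartment with different horizontal ranges; black diamonds mark the leucine, isoleucine and valine enzymes. Intervals of the cytosolic genes lie between 0.679-fold and 1.47-fold, and the interval of Lars2 is by far the widest.

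The cytosolic enzymes for the withheld amino acids differed little. Lars, which charges leucine tRNA, was at 247, 196, 241, 232 and 228 CPM in standard-diet replicates 1 to 5 and at 272, 199 and 226 CPM in BCAA-free replicates 1 to 3. Its means were 229 ± 20.0 (SD, n = 5) and 232 ± 37.1 (SD, n = 3), and the log2 fold change of 0.02 (SE 0.12) had a 95% interval of 0.856 to 1.20-fold (edgeR adjusted p = 0.957). The diets overlapped, with 1 BCAA-free library above all of the standard-diet ones.

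Iars, the cytosolic isoleucine enzyme on chromosome 13 from 49682130 to 49734267 (GRCm38, forward strand), was at 262, 228, 266, 258 and 276 CPM on the standard diet and at 239, 211 and 283 CPM on the BCAA-free diet. The means of 258 ± 17.9 and 244 ± 36.1 CPM gave a log2 fold change of -0.08 (SE 0.11, 0.806 to 1.11-fold, edgeR adjusted p = 0.809). Its lowest and its highest library were both BCAA-free. Of the 38-base stretches of its exons, 13.7% also occur in transcripts of Gm4849 or Ephb2, so reads of these genes could be mixed.

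Vars, the cytosolic valine enzyme on chromosome 17 from 35000907 to 35016329, was at 340.3, 276, 282, 310.0 and 293 CPM on the standard diet and at 332, 280.3 and 333 CPM on the BCAA-free diet. Its means were 300.3 ± 25.8 and 315 ± 30.3 CPM, with a log2 fold change of 0.07 (SE 0.11, 0.900 to 1.22-fold, edgeR adjusted p = 0.822). All of the BCAA-free values fell inside the standard-diet range. For these cytosolic genes together, 2 of 3 fold changes were positive and the median was 0.022.

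The mitochondrial enzymes for the same amino acids had positive log2 fold changes in 3 of 3, with a median of 0.38, but with unequal precision. Iars2 (gene 381314, chromosome 1 from 185286642 to 185329419, reverse strand) was at 134, 121, 122, 142 and 148 CPM on the standard diet. On the BCAA-free diet it was at 173, 183 and 166 CPM, above every standard-diet library. The means were 133 ± 12.0 and 174 ± 8.85 CPM, a 1.30-fold difference with an interval of 1.12 to 1.52 (log2 fold change 0.38, SE 0.10, unadjusted p = 0.00164, edgeR adjusted p = 0.0927). Leaving out each library in turn kept the log2 fold change between 0.34 and 0.43, with adjusted p between 0.115 and 0.328, the largest being without BCAA-free replicate 2.

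Counts of Iars2 may hold reads of another gene. Its exons overlap those of Rab3gap2 and 2010103J01Rik on the opposite strand over 32.2% of their length, and whether counting used strand is not given in the sources used here. Rab3gap2, a regulator of the GTPase RAB3, went the other way, from 190.6 ± 10.0 CPM on the standard diet to 167 ± 11.0 on the BCAA-free diet (log2 fold change -0.19, SE 0.10, edgeR adjusted p = 0.418). The part of shared reads in the Iars2 value was not tested. The ratio of Iars to Iars2 per kb was 2.74 to 3.30 in the standard-diet libraries and 1.74 to 2.57 in the BCAA-free ones, without overlap. It rests on the same Iars2 counts, is taken from ratios of 16 pairs, and was not tested. For single genes, the diets did not overlap in 8.84% of all those tested.

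Vars2, the mitochondrial valine enzyme on chromosome 17 from 35655634 to 35667639, was at 33.5, 27.5, 25.6, 32.6 and 24.9 CPM on the standard diet and at 29.2, 28.9 and 39.0 CPM on the BCAA-free diet. Its means of 28.8 ± 3.97 and 32.4 ± 5.73 CPM gave a log2 fold change of 0.17 (SE 0.16, 0.893 to 1.41-fold, edgeR adjusted p = 0.686). Only BCAA-free replicate 3 was above the standard-diet range, and without it the log2 fold change was 0.0066. Gm20483 overlaps 6.69% of its exon length on the opposite strand.

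Lars2, the mitochondrial leucine enzyme (gene 102436, chromosome 9 from 123366927 to 123462675), was the least repeatable member. It was at 1485, 4223, 1384, 2648 and 590.4 CPM on the standard diet and at 4464, 4581 and 851 CPM on the BCAA-free diet. The diets spanned nearly the same range, 590.4 to 4223 and 851 to 4581 CPM, and the coefficient of variation on the standard diet was 68.3%, against 4.15% to 27.1% in the other members. The means of 2066 ± 1412 and 3299 ± 2120 CPM gave a log2 fold change of 0.68 (SE 0.77), with an interval of 0.435 to 5.86-fold that does not bound a change in either direction (edgeR adjusted p = 0.764). Leaving out 1 library moved the log2 fold change from 0.35, when BCAA-free replicate 2 was left out, to 1.13, when BCAA-free replicate 3 was. No exon of another annotated gene overlaps it, and 0.596% of its 38-base stretches occur elsewhere in the annotated transcripts, in Gm15564 and AA474408. That share counts stretches and not the reads that fall on them. The part of reads from other sequences in the Lars2 count was not tested.

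Among 10071 rows above 5 CPM, the rows that followed Lars2 most closely over the 8 libraries were Entrez genes 767812 and 100628626, each with a Pearson correlation of 0.995, chosen after their values were seen and given without a test. The tables used here pair neither with a symbol. The next rows in order, Entrez genes 100628579 and 100628584, had correlations of 0.994 and 0.989 and also lack a symbol. Gene 100628626 was at 452, 1416, 421, 906 and 144 CPM on the standard diet and at 1536, 1529 and 307 CPM on the BCAA-free diet, on the scale of unadjusted library totals. Gene 767812 was between 11.5 and 69.7 CPM, lowest in the same library, standard-diet replicate 5, as Lars2.

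**Figure D3:**
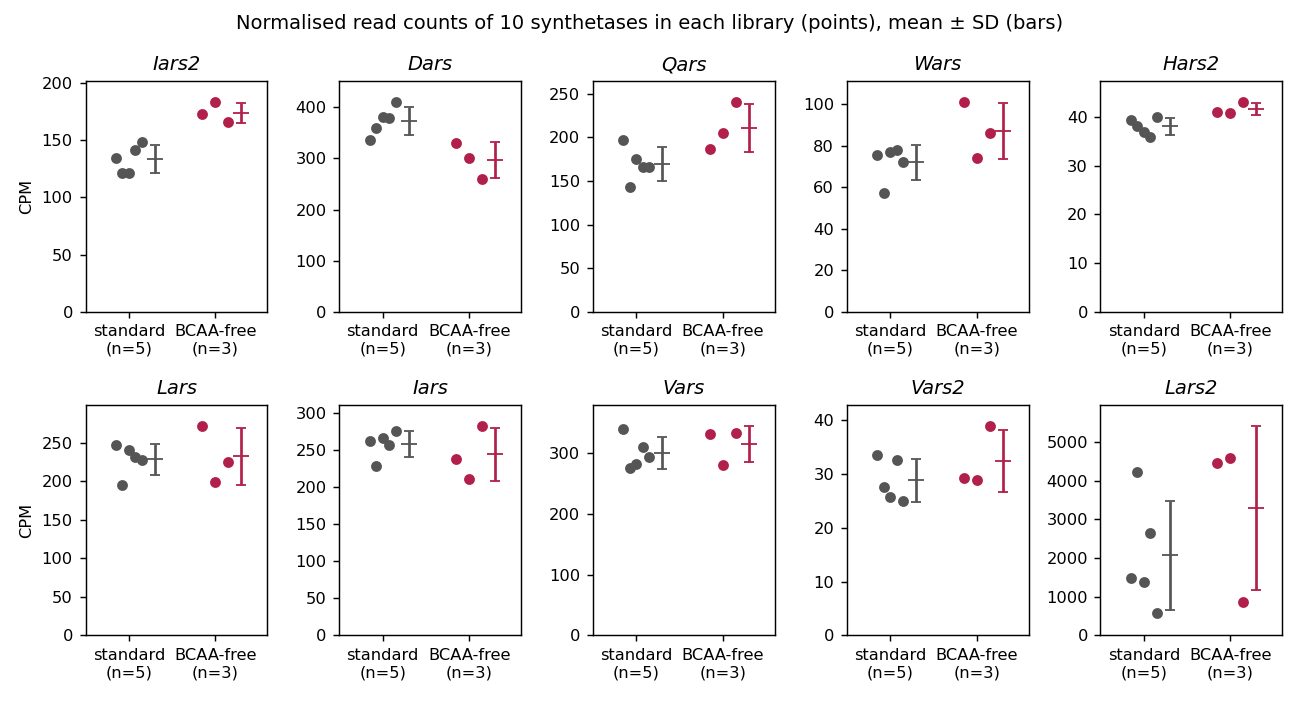
Level in each library (CPM, scaled to library size) of the leucine, isoleucine and valine enzymes and of selected other synthetases named in the text, each dot being 1 library of the standard diet (5) or the BCAA-free diet (3) and each bar the mean ± SD of its diet. The BCAA-free dots of Iars2 lie above and those of Dars below all standard-diet dots, and the dots of Lars2 spread from 590.4 to 4581 CPM.

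Set beside the other synthetases, the leucine, isoleucine and valine enzymes had 5 of 6 positive log2 fold changes and a median of 0.12, and the other 30 had 18 positive and 12 negative ones with a median of 0.031. Without Lars2 the median of the first set was 0.07. The range of the other 30, from -0.41 to 0.31, took in 4 of those 6 values, all but Iars2 and Lars2. With so few genes that share their libraries, the sets are described by these counts and were not tested against each other.

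By compartment, 15 of 20 cytosolic genes had positive log2 fold changes, with a median of 0.046, a range of -0.33 to 0.31 and 3 genes at an unadjusted p under 0.05. These 20 include Gars and Kars, which serve both compartments and had positive values (0.18 and 0.12). Of 16 mitochondrial genes 8 were positive and 8 negative, with a median of -0.0025, a range of -0.41 to 0.68 and 1 gene at an unadjusted p under 0.05. The sum of the 20 cytosolic genes was 4324, 3592, 4476, 4263 and 4271 CPM on the standard diet and 4473, 3811 and 4486 CPM on the BCAA-free diet. These sums overlapped, with means of 4185 ± 342 and 4257 ± 386 CPM, and replicate 2 was the lowest of each diet. The 13 mitochondrial genes other than Lars2, Iars2 and Vars2 summed to 345.9 ± 9.22 CPM on the standard diet and to 344, 315 and 368 CPM on the BCAA-free diet (mean 342.6 ± 26.6).

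Among cytosolic enzymes for other amino acids, Dars had the smallest p. This aspartate enzyme (gene 226414, chromosome 1 from 128363707 to 128417416, reverse strand) was at 336, 359.8, 381, 379 and 410.4 CPM on the standard diet and at 329, 302 and 259 CPM on the BCAA-free diet. Every BCAA-free library was below the standard-diet range, though the nearest values, 329 and 336 CPM, were close. Its means of 373 ± 27.5 and 297 ± 35.3 CPM were 0.794-fold apart, with an interval of 0.679 to 0.930 (log2 fold change -0.33, SE 0.11, unadjusted p = 0.00681, edgeR adjusted p = 0.183).

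Qars, the glutamine enzyme (gene 97541, chromosome 9 from 108508005 to 108515941), went the other way. It was at 197, 143, 176, 167 and 166 CPM on the standard diet and at 186, 205 and 241 CPM on the BCAA-free diet, so that standard-diet replicate 1 overlapped the BCAA-free values. The means of 169.6 ± 19.4 and 211 ± 27.5 CPM gave a 1.24-fold difference with an interval of 1.05 to 1.47 (log2 fold change 0.31, SE 0.12, edgeR adjusted p = 0.260).

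Wars, the tryptophan enzyme and a gene known to be induced by interferon-gamma, was at 75.4, 57.3, 77.2, 78.0 and 72.2 CPM on the standard diet and at 101, 74.1 and 86.0 CPM on the BCAA-free diet. The means of 72.0 ± 8.53 and 87.1 ± 13.5 CPM gave a log2 fold change of 0.27 (SE 0.13, 1.00 to 1.46-fold, edgeR adjusted p = 0.370). BCAA-free replicate 2 lay inside the standard-diet range. Eprs, a fused enzyme for glutamate and proline, was the steadiest cytosolic gene on the standard diet, at 525, 495, 554, 526 and 511 CPM, and was at 575, 444 and 496 CPM on the BCAA-free diet (means 522 ± 21.6 and 505 ± 65.8 CPM, log2 fold change -0.05, SE 0.10, edgeR adjusted p = 0.883). The BCAA-free libraries of Eprs reached both above and below the standard-diet range.

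The 2 genes that serve both compartments were slightly higher on the BCAA-free diet, without passing the test. Gars, the glycine enzyme, was at 231, 176, 241, 233 and 234 CPM on the standard diet and at 273, 229.7 and 257 CPM on the BCAA-free diet. Its means were 223 ± 26.8 and 253 ± 22.0 CPM (log2 fold change 0.18, SE 0.11, 0.959 to 1.34-fold, edgeR adjusted p = 0.518). Kars, the lysine enzyme, was at 272, 224, 286, 286 and 277 CPM on the standard diet and at 306, 276 and 292 CPM on the BCAA-free diet. Its means were 269 ± 25.8 and 291 ± 14.6 CPM (log2 fold change 0.12, SE 0.10, 0.930 to 1.26-fold, edgeR adjusted p = 0.668). In both genes standard-diet replicate 2 was the lowest library, and BCAA-free replicate 2 lay inside the standard-diet range.

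The other 11 cytosolic genes had log2 fold changes between -0.10 (Tars, threonine) and 0.11 (Aars, alanine). Aars was at 223 ± 35.3 CPM on the standard diet and 241 ± 56.3 on the BCAA-free diet, and Tars at 207 ± 28.2 and 193 ± 16.4. Nars, the asparagine enzyme, had a log2 fold change of 0.07, and Rars, the arginine enzyme, was at 194 ± 24.8 and 199 ± 7.83. The subunits of the phenylalanine enzyme, Farsa and Farsb, were at 122 ± 12.7 and 125 ± 21.6 CPM on the standard diet and at 129.8 ± 18.5 and 126 ± 17.9 on the BCAA-free diet. Mars1 (methionine), Sars (serine), Hars (histidine), Yars (tyrosine) and Cars (cysteine) had log2 fold changes of 0.03, 0.03, 0.09, -0.04 and 0.05. The edgeR adjusted p of these 11 genes was at least 0.766. Exons of Exosc6 overlap 23.1% of the Aars exons on the same strand, and Sgpp2 overlaps 11.3% of the Farsb exons on the other.

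Ears2, the mitochondrial glutamate enzyme on chromosome 7 from 122034162 to 122067094, had the most negative log2 fold change of the family over all 8 libraries, -0.41 (SE 0.23). It was at 14.1, 10.8, 9.53, 12.4 and 10.5 CPM on the standard diet and at 7.24, 6.99 and 11.6 CPM on the BCAA-free diet. Of the BCAA-free libraries 2 were below the standard-diet range and the third inside it, with means of 11.5 ± 1.79 and 8.60 ± 2.58 CPM and an interval of 0.538 to 1.06-fold (edgeR adjusted p = 0.463). Its log2 fold change became -0.69 when BCAA-free replicate 3 was left out and -0.28 when BCAA-free replicate 2 was, and Dars was the more negative gene when replicate 1 of either diet or BCAA-free replicate 2 was left out. Rars2, the mitochondrial arginine enzyme, was at 41.4, 46.8, 44.5, 33.5 and 53.7 CPM and at 38.3, 32.0 and 44.0 CPM, largely overlapping (44.0 ± 7.41 and 38.1 ± 6.01 CPM, log2 fold change -0.20, SE 0.16, edgeR adjusted p = 0.608).

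Hars2, the mitochondrial histidine enzyme, had a small fold change that did not pass the test, although its libraries did not overlap between the diets. It was at 39.3, 38.2, 36.9, 35.9 and 40.1 CPM on the standard diet and at 41.1, 40.7 and 43.1 CPM on the BCAA-free diet. All BCAA-free values were above all standard-diet values, yet the means, 38.1 ± 1.71 and 41.6 ± 1.25 CPM, were 1.09-fold apart with an interval of 0.919 to 1.30 (log2 fold change 0.13, SE 0.12, edgeR adjusted p = 0.680). Hars and Hars2 lie head to head, and each overlaps exons of the other on the opposite strand, over 9.80% of Hars and 5.85% of Hars2. Hars was at 122 ± 13.8 and 129.7 ± 5.70 CPM.

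The other 10 mitochondrial genes had log2 fold changes between -0.12 (Aars2) and 0.11 (Fars2), with an edgeR adjusted p of at least 0.871. Tars2 was the most abundant of them, at 68.4 ± 7.45 CPM on the standard diet and 67.8 ± 7.86 on the BCAA-free diet. Mars2 was at 28.3 ± 3.44 and 28.4 ± 3.48 CPM, Cars2 at 36.2 ± 6.33 and 37.9 ± 7.35, and Yars2 at 33.4 ± 5.29 and 35.2 ± 0.923. Nars2, Pars2, Sars2 and Wars2 had values of -0.01, -0.03, -0.02 and -0.03. Pars2, Fars2 and Aars2 varied most on the BCAA-free diet, with coefficients of variation of 38.9%, 35.7% and 32.4%.

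**Figure D4:**
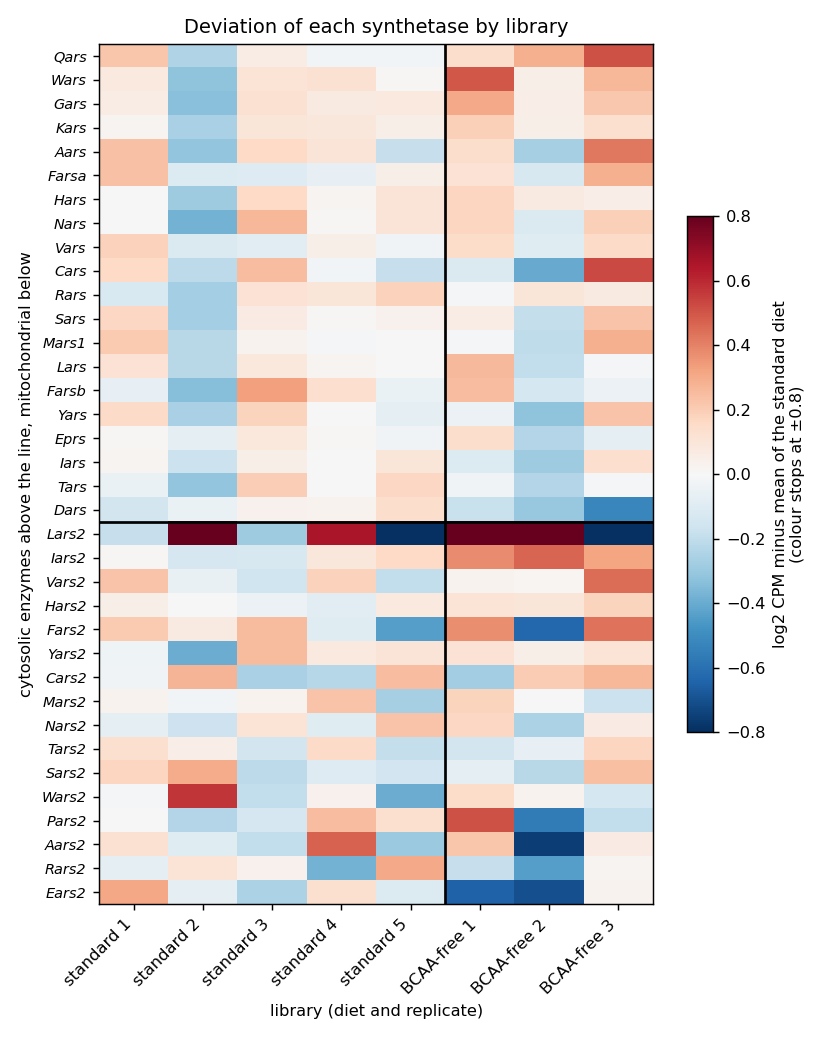
Log2 level of each of the 36 synthetase genes (rows) in each of the 8 libraries (columns), relative to the gene's mean on the standard diet; the colour scale stops at 0.8 in either direction. Standard-diet replicate 2 is low in most cytosolic rows, and Lars2 runs past the scale in both diets.

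The cytosolic synthetase genes known as ATF4 targets went both ways by small amounts. Of these 13 genes, 9 had positive and 4 negative log2 fold changes, the median was 0.033, 1 (Wars) had an unadjusted p under 0.05, and in none did the diets fail to overlap. The other 7 cytosolic genes had 6 positive values, a median of 0.091 and 2 at an unadjusted p under 0.05 (Dars and Qars). At that p these were 7.69% of the ATF4 targets and 28.6% of the other 7, against 13.5% of all tested genes. The diets did not overlap in 8.84% of all tested genes. Atf4 itself was at 159.6 ± 15.8 CPM on the standard diet and 158.0 ± 43.9 on the BCAA-free diet (log2 fold change -0.01, SE 0.15, edgeR adjusted p = 0.980). ATF4 is controlled largely at translation, so its transcript does not measure the protein. Eif2ak4, which encodes the kinase GCN2, had means of 71.1 ± 7.76 and 64.8 ± 5.01 CPM (log2 fold change -0.13, SE 0.12, edgeR adjusted p = 0.661).

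ATF4 and its partners are known to act through a short promoter element. The composite element of C/EBP and ATF factors was searched as TGATGNAA on both strands in the window from 250 bases before to 50 after the transcription start, in RefSeq promoters of GRCm38.p6, which held 27 of the 36 members. It occurred in 5 of 13 cytosolic promoters (38.5%), all 5 among the 8 ATF4 targets with a promoter (62.5%), in 0 of 14 mitochondrial promoters, and in 4.05% of all 18458 promoters of genes in the table (2.89% of the 10034 tested genes with one). A match describes the letters in this window and is no measure of binding. The matches of Gars, Iars, Tars and Yars are printed with 11 bases on each side, on the strand that carries the motif, with the motif in capitals, to show the letters that the counts rest on:
Gars, chr6:55037960-55037989, reverse strand: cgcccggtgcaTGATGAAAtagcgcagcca
Iars, chr13:49682126-49682155, reverse strand: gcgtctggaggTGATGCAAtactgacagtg
Tars, chr15:11399655-11399684, forward strand: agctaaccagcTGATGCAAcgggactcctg
Yars, chr4:129189895-129189924, forward strand: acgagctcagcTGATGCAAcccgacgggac
The 5 genes with the motif, these and Aars, had log2 fold changes of 0.11 (Aars), 0.18 (Gars), -0.08 (Iars), -0.10 (Tars) and -0.04 (Yars), so they went both ways and none passed the test.

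Cytosolic synthetases are partly held in a multisynthetase complex, and its 8 enzyme genes had 5 positive and 3 negative log2 fold changes with a median of 0.026. They included Qars and Dars, which went in opposite directions. Of the 3 scaffold genes, Aimp2 was higher in every BCAA-free library, at 39.3 ± 4.45 and 44.3 ± 1.96 CPM (log2 fold change 0.17, SE 0.13, edgeR adjusted p = 0.595), Aimp1 had a log2 fold change of 0.07 and Eef1e1 one of -0.13.

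Genes around the charging step showed no call either. Of 44 genes in 8 lists, which were the scaffold and GCN2 genes above, mitochondrial charging accessories, editing and recycling, selenocysteine charging, elongation in the cytosol and in mitochondria, and tRNA export with RNA polymerase III, 0 passed in edgeR (0.756% of all tested genes did), 3 or 6.82% had an unadjusted p under 0.05 (13.5% of all), and 28 were positive and 16 negative, with a median of 0.083 (52.6% of all were positive). The diets did not overlap in 4 of them, Aimp2, Maf1, Mtfmt and Dtd2, or 9.09%, near the 8.84% of all tested genes. Maf1, the repressor of RNA polymerase III, which makes tRNA, had the smallest p. It was higher in every BCAA-free library, at 44.5 ± 4.88 and 59.0 ± 2.92 CPM (log2 fold change 0.41, SE 0.12, edgeR adjusted p = 0.147). Mtfmt, which formylates the mitochondrial initiator methionyl-tRNA, was also higher in every BCAA-free library, at 19.1 ± 1.63 and 23.8 ± 0.797 CPM (log2 fold change 0.32, SE 0.15, edgeR adjusted p = 0.345).

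Sephs2, a selenophosphate synthetase that feeds selenocysteine charging, had means of 235 ± 23.3 and 197 ± 22.9 CPM (log2 fold change -0.26, SE 0.11, edgeR adjusted p = 0.332). Dtd2, which removes wrongly attached amino acids from tRNA, was higher in every BCAA-free library at low levels, 9.28 ± 0.990 and 11.9 ± 1.02 CPM (log2 fold change 0.35, SE 0.19, edgeR adjusted p = 0.451). All 6 cytosolic elongation genes had positive log2 fold changes, from 0.11 to 0.20 with a median of 0.18 and the smallest p in Eef2, the translocase (0.20, SE 0.12, edgeR adjusted p = 0.462). Of the 7 mitochondrial elongation genes 5 were positive, led by the release factor Mtrf1l (0.21, SE 0.15, edgeR adjusted p = 0.579).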

How the data were processed

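Polyadenylated RNA was sequenced as 38-base read pairs from Kapa mRNA HyperPrep libraries, per the labels' protocols. The authors deposited 1 table of raw counts per Entrez gene, not normalized. Build mm10, featureCounts and Cell Ranger are named, per the submitters' processing notes. What aligned the reads, whether counting used strand and how multiply mapped reads were treated is not given in the sources, so overlapping genes are uncertain. Symbols came from the RefSeq table of GRCm38.p6, which matched 25275 of 27179 identifiers; the other 1904 held 1.71% to 4.43% of a library's counts and stayed in the test. Exon lengths, as the union of a gene's annotated exons, and overlaps came from GENCODE M21.

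All 8 libraries entered edgeR 4.0.16 (R 4.3.3), with TMM factors, its default filter (minimum count 10, minimum total 15), a robust quasi-likelihood F test on diet alone, and Benjamini-Hochberg adjustment over 13364 genes at 0.05. Each SE was taken as the log2 fold change over the root of F. CPM use TMM-scaled library sizes, except marker sums and the unnamed rows beside Lars2. The biological coefficient of variation was 23.0%. DESeq2 1.42.0, limma-voom (limma 3.58.1) and the other alternatives below were recomputed on the whole table. The procedure was tested on simulated counts. Library totals did not differ between diets (two-sided exact permutation p = 0.857, smallest possible 0.0357).

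Groups came from the sample titles. Within a diet, pairs of libraries differed beyond counting noise, at a chi-square over its degrees of freedom of 20.3 to 66.0. The labels do not say that same-numbered libraries were paired. Where separate mice are not shown, p-values measure the spread between libraries. Every library's value is given for the 6 leucine, isoleucine and valine enzymes, the 4 members of each compartment with the smallest p, the 2 of each with the narrowest interval, Gars and Kars; of the pathway lists, the gene with the smallest p is named. The members and lists were chosen with earlier results of these data known. A planned comparison of protein sequences was not made. 1 promoter sequence and 1 marker gene are not reported here.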

Additional observations from a re-analysis of the deposited data

Results flagged for a closer look

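Within the 5 standard-diet libraries, 38 values were examined for a library that stood far from the others (gap to the nearest library divided by the range, above 0.710), and 4 did so, each time with replicate 2 as the lowest. Chance gives about 1 in 20 such values, and the 4 are not independent, since the sum contains the others. Gars was at 175.7 CPM there, where the median of all 5 libraries was 233. Kars was at 224 CPM, Wars at 57.3 CPM, and the sum of the 20 cytosolic genes was 3592 CPM. Without that library the log2 fold changes were 0.11 for Gars, 0.058 for Kars and 0.20 for Wars, in place of 0.18, 0.12 and 0.27, and the median of the cytosolic genes was -0.014 in place of 0.046.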

How the results depend on the processing

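Over 16 alternatives, 15 called 0 members and DESeq2 called 1, Iars2. The count of all genes called was 101 in the reported fit, 384 with DESeq2, 237 without the low-count filter, 64 with limma-voom, 11 with both replicates numbered 2 left out (added after seeing the data), and 32 (without BCAA-free replicate 2) to 134 when 1 library was left out. The replicate block on same-numbered libraries called 0 genes, with 899 at an unadjusted p under 0.05, 1 of them a member. Correlations between same-numbered libraries, as deviations from the mean of their diet, were -0.245, 0.060 and -0.464. So few libraries cannot settle whether the numbers pair them, and the labels do not say that they do. Leaving out 1 library moved the median of the cytosolic genes from -0.014 (without standard-diet replicate 2) to 0.13 (without BCAA-free replicate 2), of the mitochondrial genes from -0.015 to 0.092, of the leucine, isoleucine and valine enzymes from 0.032 to 0.19 and of the other enzymes from -0.038 to 0.096. With both replicates numbered 2 left out, the mitochondrial median was 0.10. Scaling by library totals alone gave 16 positive cytosolic and 13 positive mitochondrial genes, in place of 15 and 8, and a median of all genes of 0.062. The signs of 14 members, Iars2, Dars, Qars and Wars among them, held in all 16, and 22 others changed sign in at least 1.

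By setting, the reversed log2 fold changes were as follows. Library totals gave Yars 0.011, Nars2 0.041, Pars2 0.015, Sars2 0.029, Tars2 0.035 and Wars2 0.019. Limma-voom gave Sars2 0.0095, Tars2 0.0016 and Mars2 -0.029. Mars2 was -0.0012 with relative log expression factors, -0.0017 with DESeq2 and -0.0080 with no filter. The replicate block gave Cars -0.061, Fars2 -0.11, Mars2 -0.0081, Nars2 0.036 and Pars2 0.045. Both replicates numbered 2 left out gave Eprs 0.011, Rars -0.051, Yars 0.023, Aars2 0.083, Mars2 -0.013, Nars2 0.060, Pars2 0.12, Sars2 0.15, Tars2 0.021 and Wars2 0.13.

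With 1 library left out the range was -0.066 to 0.27 for Aars, -0.27 to 0.23 for Cars, -0.15 to 0.028 for Eprs, -0.013 to 0.19 for Farsa, -0.11 to 0.10 for Farsb, -0.20 to 0.0072 for Iars, -0.11 to 0.11 for Lars, -0.12 to 0.13 for Mars1, -0.0085 to 0.16 for Nars, -0.020 to 0.091 for Rars, -0.075 to 0.13 for Sars and -0.19 to 0.081 for Yars. It was -0.30 to 0.11 for Aars2, -0.037 to 0.22 for Cars2, -0.078 to 0.37 for Fars2, -0.092 to 0.083 for Mars2, -0.092 to 0.097 for Nars2, -0.37 to 0.17 for Pars2, -0.16 to 0.071 for Sars2, -0.11 to 0.052 for Tars2, -0.11 to 0.14 for Wars2 and -0.012 to 0.14 for Yars2. Of the members that kept their sign, the widest ranges were 0.35 to 1.13 for Lars2, -0.69 to -0.28 for Ears2, 0.0066 to 0.24 for Vars2, -0.33 to -0.10 for Rars2, 0.15 to 0.37 for Wars, 0.20 to 0.39 for Qars and -0.41 to -0.25 for Dars. The cause of these shifts was not tested. The lowest member count in a library was 108, and the number of libraries limits the precision.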
